A study of Saccharomyces cerevisiae with 21 samples.

Results

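The 10 genes described here encode components of the filamentous growth mitogen-activated protein kinase (MAPK) cascade of the budding yeast Saccharomyces cerevisiae. The choice was by name and not by a rule on their values, though earlier results of these data were known. They are SHO1 and OPY2, which encode membrane proteins at the top of the cascade, CDC42, STE20, STE50, STE11 and STE7, which encode its GTPase, kinases and adaptor, STE12, which encodes its transcription factor, and DIG1 and DIG2, which encode repressors of Ste12. All 10 were found among the 7126 features of every count table, and all 10 passed the filter on low counts. Polyadenylated RNA was sequenced from biofilms of 7 strains of the Sigma1278B background, with 3 libraries a strain. The strains were a wild type (WT), 5 mutants described in the labels as hypofilamentous, namely rtg3, ras2, rim101-531, spt8 and ste12, and 1 described as hyperfilamentous, dig1. All were pregrown in rich glucose liquid at 30 °C for 16 h and spotted on 2% agar with galactose for 24 h. The labels name 1 mutated gene for each mutant and no other marker, ploidy or mating type.

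In this cascade the mucin Msb2, Sho1 and Opy2 pass a signal at the plasma membrane to the GTPase Cdc42, which activates the kinase Ste20. Ste20 acts on Ste11, a MAPK kinase kinase held by the adaptor Ste50, Ste11 acts on the MAPK kinase Ste7, and Ste7 acts on the MAPK Kss1. Kss1 frees Ste12 from Dig1 and Dig2, and Ste12, often with its partner Tec1, switches on genes for cell elongation and adhesion. Ste20, Ste50, Ste11, Ste7 and Ste12 also serve the mating pathway. Sho1, Opy2, Ste50 and Ste11 also serve the high osmolarity glycerol (HOG) pathway.

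Counts on features ranged from 2388813 to 3987529 a library, and between 40.1% and 47.8% of alignment records of a library had been given to no gene. A level below is in CPM, which sets a gene's counts against the TMM-scaled library total, as mean ± SD over n = 3 libraries. A difference is a log2 fold change ± its standard error with a two-sided adjusted p from edgeR's quasi-likelihood test, fitted on 5786 genes. A gene was called at an adjusted p under 0.05. Whether the libraries of a strain stem from separate cultures is not in the labels, so the p-values rest on a spread that may be technical. The mutated genes were checked first. The dig1 libraries held 1 count of DIG1 and the WT libraries 549, a ratio of 535 after scaling, with an exact 95% interval of 95.7 to 21182, which covers counting error only. STE12 kept 187 counts over the ste12 libraries against 534 in WT. SPT8, RAS2 and RTG3 had 0 counts in their own mutants, and RIM101 stood at 164 ± 18.5 CPM in rim101-531 against 182 ± 10.8 CPM in WT, so gene counts did not check that label. The galactose gene GAL1 was high in every strain, with means between 3255 and 5490 CPM. The a-specific genes STE2, BAR1 and STE6 were counted in all strains, and so were the alpha-specific genes STE3 and SAG1. The pheromone genes MFA1 (a-specific) and MFALPHA1 (alpha-specific) were too low to be tested.

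The stretch upstream of each start codon was searched after OPY2 and CDC42, besides STE12 itself, had been called lower in the ste12 mutant. Both strands of the 300 bases before the start codon were searched in the R64 reference, which is from the S288C background and not from Sigma1278B. The pheromone response element TGAAACA, the letters bound by Ste12, was in 2 of the 10 windows, those of DIG1 and CDC42, and in 432 of 6001 windows of protein-coding genes (7.2%). The letters CATTCC or CATTCT, bound by Tec1, were in 2 of the 10 windows, those of OPY2 and CDC42, and in 1538 of 6001 (25.6%). CDC42 was the member with both, its response element ending 293 bases and its Tec1 letters 149 bases before the start codon. The DIG1 response element ended 253 bases and the OPY2 Tec1 letters 197 bases before it. The 3 windows with a match are shown 5′ to 3′ on the gene's strand without the 100 bases next to the start codon, with the matched letters in capitals. They are chrXVI:463940-464139 (minus strand) for DIG1, chrXVI:696920-697119 (minus strand) for OPY2 and chrXII:604888-605087 (minus strand) for CDC42. DIG1, with a response element, was not called in ste12 (-0.26 ± 0.14, adjusted p = 0.279). A match is a run of letters and not a shown binding site, and its bearing on the levels was not tested.
DIG1: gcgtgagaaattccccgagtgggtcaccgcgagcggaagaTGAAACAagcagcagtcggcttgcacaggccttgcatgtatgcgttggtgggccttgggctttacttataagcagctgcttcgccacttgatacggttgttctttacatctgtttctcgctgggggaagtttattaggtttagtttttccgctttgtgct
OPY2: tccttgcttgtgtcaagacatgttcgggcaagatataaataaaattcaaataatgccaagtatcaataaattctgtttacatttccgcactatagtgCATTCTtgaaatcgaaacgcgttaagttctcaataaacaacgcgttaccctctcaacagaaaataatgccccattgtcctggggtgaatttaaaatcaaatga
CDC42: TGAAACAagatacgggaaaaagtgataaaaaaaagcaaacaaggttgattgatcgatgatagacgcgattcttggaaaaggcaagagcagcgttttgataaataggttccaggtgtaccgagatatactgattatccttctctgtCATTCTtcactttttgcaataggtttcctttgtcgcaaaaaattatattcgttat

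In WT biofilms the 10 transcripts covered a wide range once counts were divided by coding length. CDC42 was highest at 427 ± 18.5 CPM per kb, above 91.5% of 5512 genes with a coding length, and OPY2 followed at 212 ± 5.10 CPM per kb, above 84.9% of them. SHO1 stood at 64.1 ± 8.73 CPM per kb, over the median gene at 46.2. The other 7 were below that median, from DIG1 at 44.8 ± 8.24 and STE50 at 36.4 ± 0.472 CPM per kb to STE20 at 21.4 ± 1.59 and DIG2 at 21.3 ± 6.59 CPM per kb. The membrane and GTPase genes thus had the 3 highest levels per length, while the transcription factor STE12 (28.6 ± 4.25 CPM per kb) and the kinase gene STE7 (24.2 ± 0.204 CPM per kb) lay in the lower part of all genes.

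**Figure D1:**
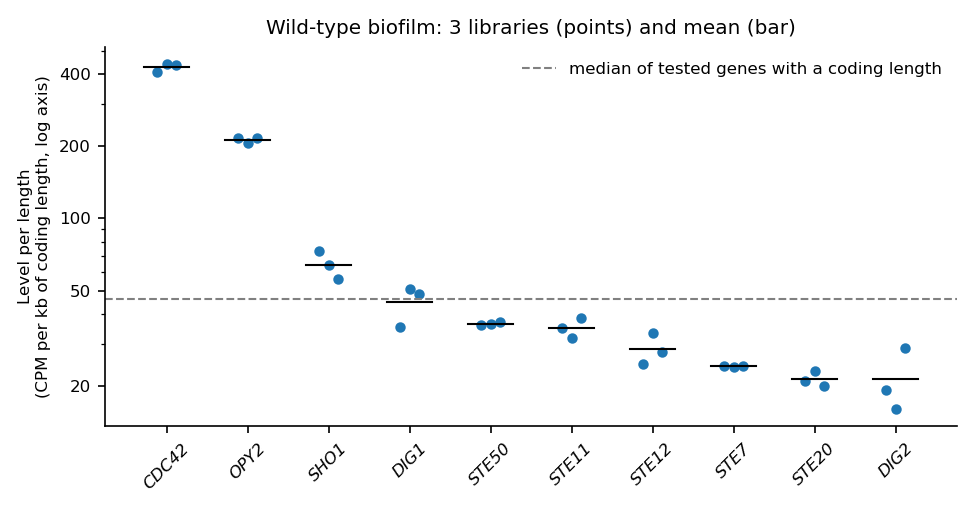
Level per length of the 10 cascade transcripts in the 3 WT libraries, in CPM per kb of coding length on a log axis, with bars for the means and a dashed line for the median of 5512 tested genes. CDC42, OPY2 and SHO1 lie above the line, and the mean of DIG1 lies just under it.

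Differences among strains were modest in size. An overall test for any difference among the 7 strains called 9 of the 10 genes, all but DIG2, beside 63.5% of all genes tested. Those 9 include STE12 and DIG1, each low in its own mutant, so their calls do not show a difference among the other strains. Leaving each gene's own mutant out, the ratio of the highest to the lowest strain mean ran from 1.26 for DIG1 and 1.40 for DIG2 to 1.65 for CDC42 and 1.73 for STE11. In bulk RNA a changed level in all cells of a biofilm and a changed share of cells that carry the transcript cannot be told apart. The 6 comparisons with WT share the WT libraries, so a chance shift in those moves all of them together.

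**Figure D2:**
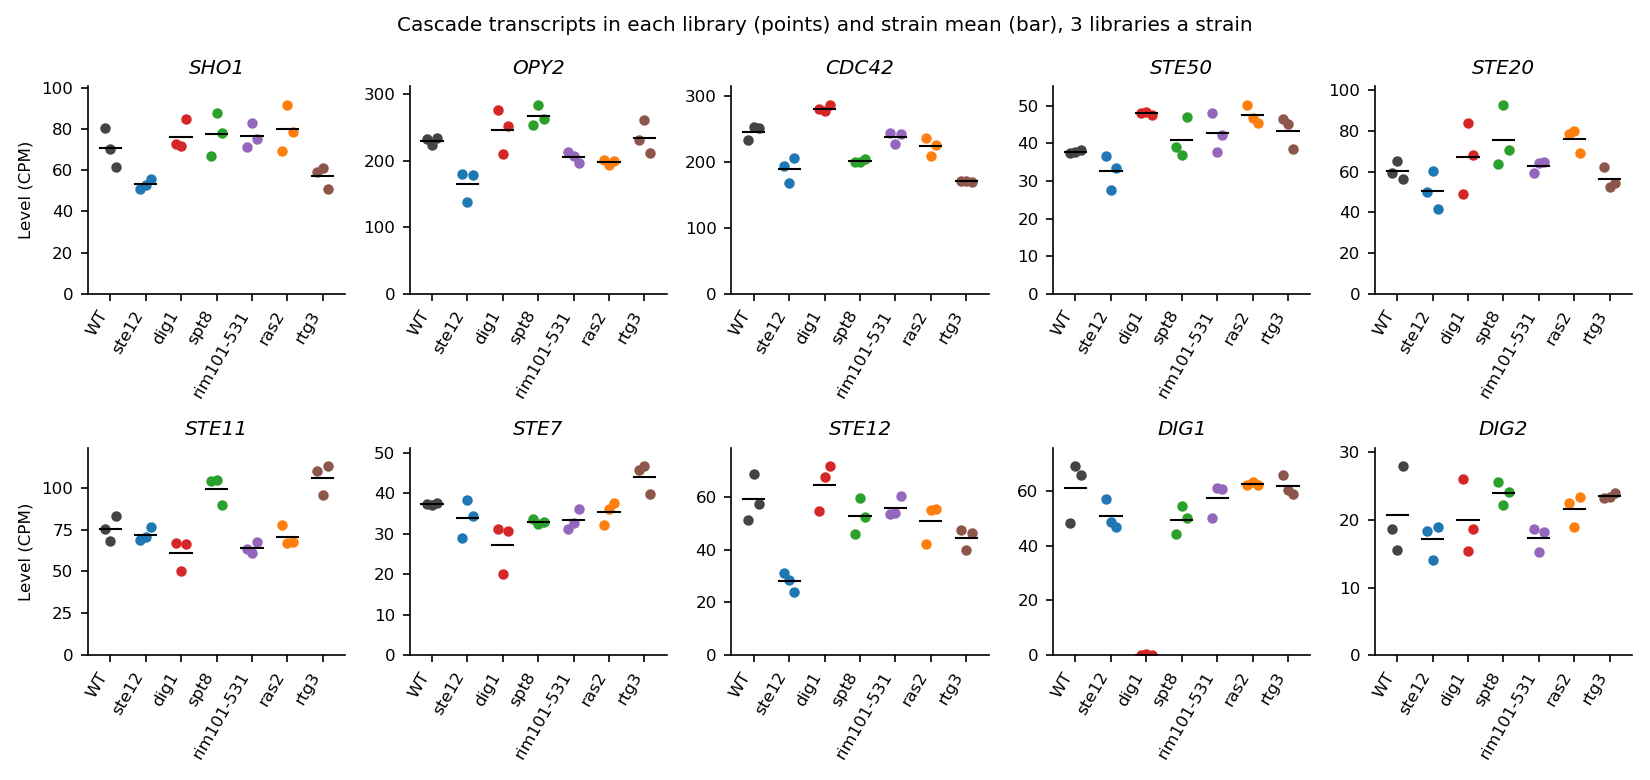
Level of each cascade transcript in CPM in each of 21 libraries (points) with the strain mean (bar), by strain. STE12 in ste12 and DIG1 in dig1 lie below every other strain, and the 3 dig1 libraries lie highest for CDC42.

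SHO1 (YER118C, chromosome V, 397952 to 399055, minus strand, 1 coding exon) encodes a membrane protein that docks signalling partners. Its level was 80.7, 70.2 and 61.4 CPM in WT and 51.0, 52.7 and 55.7 CPM in ste12. The 3 ste12 libraries lay under all WT libraries, yet the difference missed the threshold (-0.41 ± 0.14, adjusted p = 0.0623). It passed in a fit that also took the replicate number into account (-0.42, adjusted p = 0.0439). The dig1 libraries, at 72.6, 71.6 and 85.0 CPM, lay above all of ste12 and overlapped WT. SHO1 rose in dig1 against ste12 by 0.52 ± 0.14 (adjusted p = 0.00836), and that call held under every other setting tried. By strain mean, ras2 (79.9 ± 11.3 CPM), spt8 (77.6 ± 10.5), rim101-531 (76.4 ± 5.98), dig1 (76.4 ± 7.46) and WT (70.8 ± 9.64) overlapped as neighbours. Below them came rtg3 (57.1 ± 5.54) and ste12 (53.1 ± 2.35), which overlapped with each other. The rtg3 difference from WT was -0.31 and was not called (adjusted p = 0.10). Its highest library, at 61.2 CPM, lay just under the lowest WT library at 61.4 CPM.

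OPY2 (YPR075C, chromosome XVI, 695737 to 696819, minus strand, 1 coding exon) encodes the membrane anchor for Ste50. It stood at 233, 224 and 233 CPM in WT and at 179, 138 and 179 CPM in ste12, with no overlap. It fell in ste12 by 0.48 ± 0.11 on the log2 scale (adjusted p = 0.0102), but without ste12 replicate 2, the lowest library, the value was -0.35 and the adjusted p 0.0848. In dig1 it was 276, 210 and 251 CPM, which overlapped WT, and the difference from WT was 0.09 ± 0.11 (adjusted p = 0.660). Against ste12 the dig1 level was higher by 0.57 ± 0.11 (adjusted p = 0.000979), a call lost with only the libraries of both strains in the fit (0.58, adjusted p = 0.0644). In such a fit the ste12 call against WT was lost too (-0.45, adjusted p = 0.0603). The order of means was spt8 (267 ± 15.4 CPM), dig1 (246 ± 33.1), rtg3 (234 ± 24.5) and WT (230 ± 5.52), then, under the WT range, rim101-531 (206 ± 8.47) and ras2 (198 ± 4.27), then ste12 (165 ± 23.9). The rim101-531 and ras2 levels lay outside the WT range and were not called (adjusted p = 0.507 and 0.175). YPR076W, a feature numbered next to OPY2 and absent from the gene table used, held 12 to 41 counts a library and differed between dig1 and ste12 by 0.71 (adjusted p = 0.0495), and its part in the OPY2 counts was not tested.

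CDC42 (YLR229C, chromosome XII, 604212 to 604787, minus strand, 1 coding exon) encodes a GTPase of cell polarity and had the smallest spread between replicates, with a median coefficient of variation of 3.82% over the strains. It stood at 234, 253 and 252 CPM in WT, 194, 168 and 206 CPM in ste12, and 280, 277 and 286 CPM in dig1. All ste12 libraries were below and all dig1 libraries above those of WT. It fell by 0.38 ± 0.08 in ste12 (adjusted p = 0.00630), and without ste12 replicate 2 the value was -0.28 with an adjusted p of 0.0507, and with only the libraries of both strains it was -0.35 with 0.102. The dig1 difference from WT of 0.19 ± 0.08 was not called (adjusted p = 0.136) but passed under DESeq2 (0.22, adjusted p = 0.0173), while dig1 against ste12 was called (0.57 ± 0.08, adjusted p = 4.60e-05).

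CDC42 also changed in strains whose mutated gene lies outside the cascade. The spt8 libraries held 199, 200 and 204 CPM and the rtg3 libraries 171, 171 and 169 CPM, both below all WT libraries. In rtg3 it fell by 0.53 ± 0.08 on the log2 scale (adjusted p = 0.000158), a call kept under every other setting tried. In spt8 it fell by 0.29 ± 0.08 (adjusted p = 0.0146), and leaving out WT replicate 3 gave -0.26 with an adjusted p of 0.0588, and only the libraries of both strains -0.30 with 0.0629. Library totals without TMM scaling moved the median of all genes by 0.25 in spt8 and 0.24 in rtg3, and on that scale CDC42 stood at -0.05 in spt8 and -0.28 in rtg3. The strain order was dig1 (281 ± 5.04 CPM), then WT (246 ± 10.7), rim101-531 (237 ± 9.06) and ras2 (224 ± 13.9), which overlapped as neighbours, then spt8 (201 ± 2.57), ste12 (190 ± 19.3) and rtg3 (170 ± 0.930), which overlapped as neighbours too. A feature numbered next to CDC42, YLR230W, held 95 to 247 counts a library and differed between dig1 and ste12 by 0.51 (adjusted p = 0.00474) and between rtg3 and WT by -0.41 (adjusted p = 0.0222). It has no entry in the gene table used, so a shared stretch between it and CDC42, and its part in the CDC42 counts, was not tested.

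STE50 (YCL032W, chromosome III, 63441 to 64481, plus strand, 1 coding exon) encodes the adaptor that holds Ste11. Its level was 37.4, 37.7 and 38.4 CPM in WT, 36.8, 27.6 and 33.4 CPM in ste12, and 48.2, 48.4 and 47.7 CPM in dig1. The 3 dig1 libraries agreed closely and lay above all WT and ste12 libraries. Against WT the dig1 difference was 0.35 ± 0.12 and missed the threshold (adjusted p = 0.0562). It passed under DESeq2 (adjusted p = 0.0457) and with the replicate number in the fit (adjusted p = 0.0455). Against ste12 it rose by 0.56 ± 0.13 (adjusted p = 0.00248), a call kept under every other setting tried. In ras2, at 50.3, 46.9 and 45.4 CPM, it rose by 0.33 ± 0.12 (adjusted p = 0.0467), just inside the threshold, and no fit without 1 of the 6 libraries of ras2 and WT kept that call (adjusted p from 0.0512 to 0.135). The other means were 43.4 ± 4.18 CPM in rtg3, 42.7 ± 5.23 in rim101-531 and 41.0 ± 5.44 in spt8, neighbours overlapped from dig1 down to WT, and ste12 was lowest at 32.6 ± 4.63 CPM.

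STE20 (YHL007C, chromosome VIII, 95118 to 97937, minus strand, 1 coding exon) encodes the kinase that Cdc42 activates. Its level was 59.4, 65.3 and 56.5 CPM in WT, 50.1, 60.4 and 41.7 CPM in ste12, and 49.2, 83.9 and 68.1 CPM in dig1, and all these ranges overlapped. It was called in none of the 6 comparisons with WT and not in dig1 against ste12. With only the ras2 and WT libraries in the fit, ras2 passed (0.34, adjusted p = 0.0415). In dig1 against ste12 the difference was 0.40 ± 0.18 (adjusted p = 0.121), and without dig1 replicate 1, the lowest of its 3, it was 0.59 with an adjusted p of 0.0154. Strain means ran from 76.1 ± 5.80 CPM in ras2 and 75.7 ± 15.3 in spt8 through 67.1 ± 17.4 in dig1, 62.9 ± 2.92 in rim101-531, 60.4 ± 4.50 in WT and 56.3 ± 5.22 in rtg3 to 50.7 ± 9.32 in ste12, every neighbour overlapping. Its overall call (adjusted p = 0.0432) was lost in 13 of 21 fits that left out 1 library, with adjusted p-values up to 0.0957 without ste12 replicate 3.

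STE11 (YLR362W, chromosome XII, 849866 to 852019, plus strand, 1 coding exon) encodes the MAPK kinase kinase and had the largest ratio of highest to lowest strain mean among the 10, each gene's own mutant left out. It stood at 75.2, 68.3 and 83.1 CPM in WT, 104, 104 and 89.4 CPM in spt8, and 110, 95.5 and 113 CPM in rtg3. All spt8 and rtg3 libraries lay above all others. STE11 rose by 0.49 ± 0.12 in rtg3 (adjusted p = 0.00535), a call kept under every other setting tried. It rose by 0.40 ± 0.12 in spt8 (adjusted p = 0.0168), and that call was lost without WT replicate 2 (0.33, adjusted p = 0.0745), without spt8 replicate 1 (0.36, adjusted p = 0.0575), without spt8 replicate 2 (0.36, adjusted p = 0.0577) and with only the libraries of both strains (0.39, adjusted p = 0.0593). These 2 strains were also the ones with the largest TMM factors (1.12 to 1.16), and on plain library totals STE11 stood higher still, at 0.63 in spt8 and 0.73 in rtg3. The other 5 strains overlapped as neighbours, from WT (75.5 ± 7.40 CPM), ste12 (71.9 ± 4.18) and ras2 (70.8 ± 6.08) to rim101-531 (64.2 ± 3.42) and dig1 (61.2 ± 9.32). In dig1 the difference from WT was -0.30 ± 0.12 and was not called (adjusted p = 0.10).

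STE7 (YDL159W, chromosome IV, 172481 to 174028, plus strand, 1 coding exon) encodes the MAPK kinase. Its 3 WT libraries lay together at 37.4, 37.1 and 37.7 CPM, while dig1 held 31.1, 20.1 and 30.8 CPM. It fell in dig1 by 0.45 ± 0.14 (adjusted p = 0.0330), the lowest dig1 library being replicate 2. Without that library the value was -0.25 and the adjusted p 0.248, and without WT replicate 1, 2 or 3 the adjusted p was 0.107, 0.0831 and 0.107. With only the dig1 and WT libraries it was 0.220. The 59 counts behind that library's value were the fewest of any library for this gene. In rtg3 the libraries, at 45.9, 46.7 and 39.8 CPM, lay above all libraries of the other strains, with a difference from WT of 0.23 ± 0.13 that was not called (adjusted p = 0.216). Between those ends WT, ras2 (35.3 ± 2.75 CPM), ste12 (33.8 ± 4.66), rim101-531 (33.3 ± 2.49) and spt8 (33.0 ± 0.647) overlapped as neighbours.

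STE12 (YHR084W, chromosome VIII, 274174 to 276240, plus strand, 1 coding exon) encodes the cascade's transcription factor. It stood at 51.3, 68.6 and 57.2 CPM in WT and at 31.3, 28.5 and 24.1 CPM in the ste12 mutant. The mutant libraries lay below every other library, and the level fell by 1.08 ± 0.16 on the log2 scale (adjusted p = 0.000108). Reads on the gene remained, at a WT to mutant ratio of 2.11 in normalized counts. The exact 95% interval of that ratio, 1.78 to 2.51, covers counting error only. The labels do not describe the mutation, and whether these reads come from a remaining part of the gene was not tested. In dig1 STE12 stood at 54.5, 67.5 and 71.5 CPM, which overlapped WT (0.13 ± 0.14, adjusted p = 0.639). The lowest intact strain was rtg3 at 47.5, 39.7 and 46.3 CPM, below all WT libraries. Its difference from WT was -0.41 ± 0.14 and missed the threshold (adjusted p = 0.0523). That difference passed without WT replicate 1 (-0.46, adjusted p = 0.0426), under DESeq2 (adjusted p = 0.0474) and with the replicate number in the fit (-0.40, adjusted p = 0.0307). The means of rim101-531 (55.9 ± 3.82 CPM), spt8 (52.6 ± 6.96) and ras2 (50.8 ± 7.64) overlapped with their neighbours in the order.

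DIG1 (YPL049C, chromosome XVI, 462481 to 463839, minus strand, 1 coding exon) and DIG2 (YDR480W, chromosome IV, 1417399 to 1418370, plus strand, 1 coding exon) encode the 2 repressors that bind Ste12. DIG1 stood at 48.1, 68.9 and 65.6 CPM in WT, 57.0, 48.4 and 46.8 CPM in ste12, and 0, 0.341 and 0 CPM in dig1. Outside its own mutant, DIG1 means lay between 49.5 ± 5.08 CPM in spt8 and 62.5 ± 0.543 CPM in ras2, all overlapping as neighbours, and no other strain was called against WT. In spt8 the difference was -0.30 ± 0.14 (adjusted p = 0.122), which passed without WT replicate 1, the lowest WT library (-0.42, adjusted p = 0.0251).

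DIG2 was the member with the fewest counts, 33 to 106 a library, and at this depth no difference was detectable among the strains (overall adjusted p = 0.198). It stood at 18.7, 15.6 and 27.9 CPM in WT and 26.1, 15.4 and 18.7 CPM in dig1, ranges that overlapped almost entirely (-0.04 ± 0.20, adjusted p = 0.925). Strain means lay between 17.1 ± 2.72 CPM in ste12 and 23.9 ± 1.71 CPM in spt8. Per length, DIG1 and DIG2 together stood at 2.33 ± 0.40 times STE12 in WT, between 2.01 and 2.78 in its libraries, and at 0.69 ± 0.29 times in dig1, between 0.49 and 1.02. DIG1 is the mutated gene in dig1, so the sum there is almost all DIG2. DIG2 alone stood at 0.77 ± 0.28 times STE12 in WT and 0.69 ± 0.29 times in dig1. The ratio of both repressor transcripts together to STE12 was 4.10 ± 0.50 in ste12 (3.64 to 4.63), where STE12 is the mutated gene. In rtg3 it was 3.25 ± 0.28, and no library (3.04 to 3.56) reached down to WT. The means of rim101-531, spt8 and ras2 were 2.22 to 2.82. The ratios describe RNA per coding length and were not tested.

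**Figure D3:**
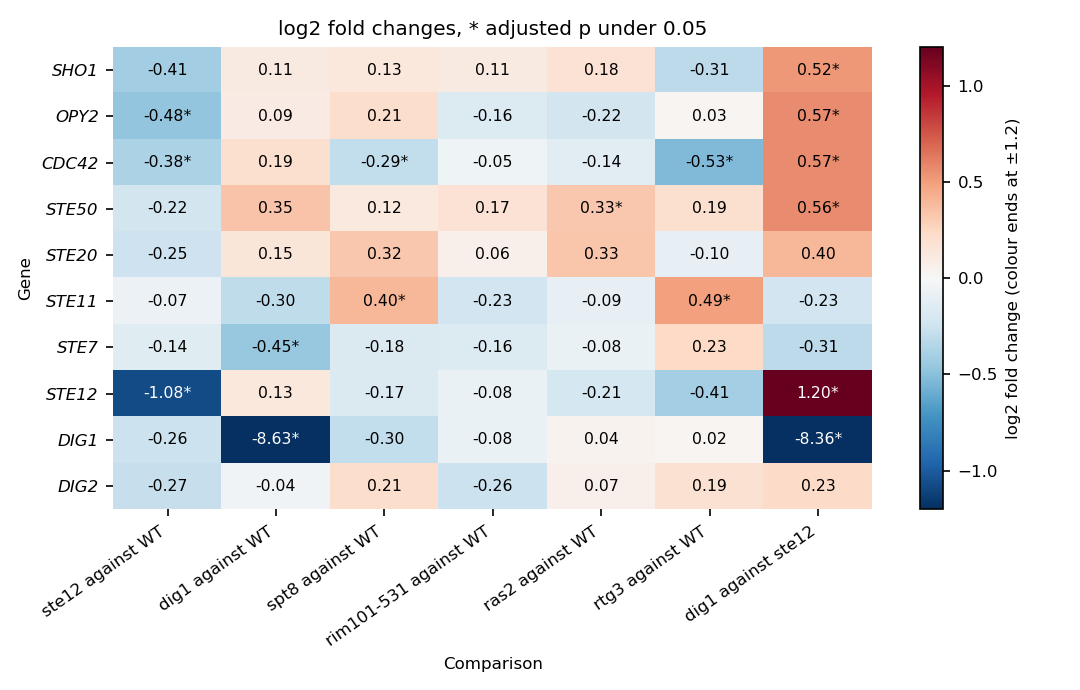
Log2 fold changes of the 10 cascade genes in 6 mutants against WT and in dig1 against ste12, with stars for adjusted p under 0.05 and a colour scale that ends at 1.2 in either direction. Stars outside the mutated genes cluster in the column of dig1 against ste12, with 4, and in the row of CDC42, with 4. The DIG1 values for dig1 rest on 1 count and depend on the prior count.

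The comparison of ste12 with WT set a strain mutated in the cascade's transcription factor gene, with STE12 reads remaining, against the wild type. It called 3 of the 10 genes, all lower (STE12, OPY2 and CDC42), and 2 of the 9 without STE12, beside 9.97% of all genes (4.77% higher, 5.2% lower). The median log2 fold change of the 10 was -0.27 against -0.03 over all genes. For 5 of the 10 all ste12 libraries lay below all WT libraries, namely STE12 (the mutated gene), STE50, SHO1, OPY2 and CDC42. That stood beside 27.6% of all genes in either direction, and none of the 10 had them all above.

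The hyperfilamentous dig1 strain had fewer of these genes called against WT than against ste12. Against WT the test called 2 genes, both lower, namely DIG1 and STE7, which leaves 1 of 9 without DIG1, beside 15.7% of all genes (8.02% higher, 7.69% lower). The median of the 10 was 0.10 against -0.01 over all genes. The libraries of both strains did not overlap for 5 of the 10, beside 27.5% of all genes. DIG1 (the mutated gene), STE7 and STE11 were lower in dig1, and STE50 and CDC42 were higher. Against ste12 the test called 6 of 10, and without STE12 and DIG1 it called 4 of 8, all higher (STE50, SHO1, OPY2 and CDC42), beside 21.7% of all genes (11.6% higher, 10.1% lower). The median of the 10 was 0.46 against -0.0034 over all genes. For 7 of the 10 the libraries did not overlap, 5 higher and 2 lower in dig1, beside 30.9% of all genes. The 7 include the mutated genes themselves, STE12 among the higher and DIG1 among the lower. STE11 (-0.23 ± 0.12, adjusted p = 0.203) and STE7 (-0.31 ± 0.15, adjusted p = 0.148) had estimates below 0 and were not called, and DIG2 stood at 0.23 ± 0.21 (adjusted p = 0.512).

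The other 4 mutants are altered in genes that are not among the 10. In spt8, 2 of 10 genes were called beside 25.5% of all genes (11.1% higher, 14.4% lower), STE11 higher and CDC42 lower, and 4 did not overlap with WT beside 39.1%. In rtg3, 2 of 10 were called beside 20.5% (9.32% higher, 11.2% lower), STE11 higher and CDC42 lower, and 6 did not overlap with WT beside 43.6%. In ras2, 1 of 10 was called beside 25.3% (10.3% higher, 14.9% lower), namely STE50, higher, and 3 did not overlap with WT beside 43.6%. In rim101-531, 0 of 10 were called beside 3.08% (1.28% higher, 1.8% lower), and 3 did not overlap with WT beside 23.8%. For rim101-531 edgeR's test also had 0 of the 10 at an unadjusted p under 0.05, and DESeq2 called 0. The shares of the 10 called in spt8, rtg3, ras2 and rim101-531 were not above those of all genes.

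Each mutant was also set against the average of the remaining 5, a comparison added after the values had been seen, which contrasts no WT library and leaves out STE12 or DIG1 where the average holds the mutant of that gene. In ste12, 6 of 9 genes were called beside 27.3% of all genes, all lower, namely STE12, STE20 (-0.40, adjusted p = 0.0407), STE50 (-0.45, adjusted p = 0.00318), SHO1 (-0.46, adjusted p = 0.00482), OPY2 (-0.47, adjusted p = 0.000942) and CDC42 (-0.21, adjusted p = 0.0241). In dig1, 4 of 9 were called beside 21.2%, with CDC42 higher (0.47, adjusted p = 1.20e-05). DIG1, STE7 (-0.39, adjusted p = 0.0170) and STE11 (-0.40, adjusted p = 0.00441) were lower. The ste12 and dig1 counts include STE12 and DIG1, each low in its own mutant. In rtg3, 4 of 8 were called beside 35.3%, with STE7 and STE11 higher by 0.44 and 0.55 and SHO1 and CDC42 lower, at -0.33 and -0.40. In spt8, 2 of 8 were called beside 31%, STE11 and OPY2, both higher, while CDC42 stood at -0.11 (adjusted p = 0.222). In ras2 and rim101-531 edgeR's test called 0 of 8, beside 29.3% and 5.72%, with 3 and 2 genes at an unadjusted p under 0.05.

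The other genes of the filamentation branch were the MAPK gene KSS1, the mucin gene MSB2, the gene of the Ste12 partner TEC1 and 11 regulators. Of these 14, dig1 against ste12 called 9, all higher, beside 21.7% of all genes, ste12 against WT called 4, all lower, beside 9.97%, and dig1 against WT called 5, all higher, beside 15.7%. MSB2 stood at 925 ± 93.4 CPM in WT, 264 ± 47.1 in ste12 and 961 ± 8.87 in dig1, and TEC1 at 69.5 ± 6.02, 27.5 ± 2.14 and 100.5 ± 3.81 CPM. KSS1 stood at 44.4 ± 4.41 CPM in WT, 23.0 ± 3.59 in ste12 and 86.3 ± 5.49 in dig1, and RGA1, a GTPase-activating protein for Cdc42, at 58.1 ± 5.09, 37.1 ± 6.78 and 78.0 ± 5.19 CPM. The log2 fold changes of these 4, chosen by smallest overall p, ran from 1.07 for RGA1 to 1.90 for KSS1 between dig1 and ste12. Over all 14 the median was 0.55, beside 0.46 for the 8 intact cascade genes, and the lowest was -0.28 for BMH1, a 14-3-3 protein gene. In spt8 the list had 3 called of 14 (1 higher, 2 lower) beside 25.5% of all genes, in ras2 3 (1 higher, 2 lower) beside 25.3% and in rtg3 2, both lower, beside 20.5%, shares not above those of all genes. In rim101-531 edgeR's test called 0 (1 at an unadjusted p under 0.05, and 0 by DESeq2).

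The mating branch shares proteins with the filamentation branch, among them Ste20, Ste50, Ste11, Ste7 and Ste12. Of its 10 other genes, ste12 called 4, all lower, beside 9.97% of all genes, dig1 called 4, all higher, beside 15.7%, and dig1 against ste12 called 6, all higher, beside 21.7%. STE2, the receptor for alpha factor, stood at 262 ± 24.9 CPM in WT, 65.4 ± 10.5 in ste12 and 542 ± 41.9 in dig1, and FUS3, the mating MAPK, at 159 ± 13.3, 77 ± 4.79 and 246 ± 20.8 CPM. SST2, which turns the receptor signal off, and FAR1, an inhibitor of the cell cycle, differed between dig1 and ste12 by 1.94 ± 0.20 (adjusted p = 5.27e-07) and 1.04 ± 0.13 (adjusted p = 3.87e-06). The list also had 3 genes called in spt8 (1 higher, 2 lower) beside 25.5% of all genes, 6 in ras2 (1 higher, 5 lower) beside 25.3% and 4 in rtg3, all lower, beside 20.5%. In rim101-531 edgeR's test called 0 (3 at an unadjusted p under 0.05, and 1 by DESeq2).

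The HOG branch shares proteins with the cascade, among them Sho1, Opy2, Ste50 and Ste11. Of 10 further genes of this branch, dig1 called 4 (3 higher, 1 lower) beside 15.7% of all genes. The comparison of dig1 against ste12 called 3 (2 higher, 1 lower) beside 21.7%. In ste12 edgeR's test called 0 (1 at an unadjusted p under 0.05, and 0 by DESeq2). SLN1, the osmosensor kinase of the other HOG input, stood at 58.9 ± 6.13 CPM in WT, 61.4 ± 13.1 in ste12 and 101 ± 7.46 in dig1. SSK22, a MAPK kinase kinase gene, rose in dig1 against ste12 by 0.69 ± 0.11 (adjusted p = 9.48e-05) and RCK2, a kinase downstream of Hog1, fell by 0.30 ± 0.11 (adjusted p = 0.0470). YPD1, the relay protein after Sln1, fell in rtg3 by 0.59 ± 0.12 (adjusted p = 0.00114). The list had 2 genes called in spt8, 1 in ras2 and 2 in rtg3, shares not above the 25.5%, 25.3% and 20.5% of all genes. In rim101-531 edgeR's test called 0 (1 at an unadjusted p under 0.05, and 0 by DESeq2).

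**Figure D4:**
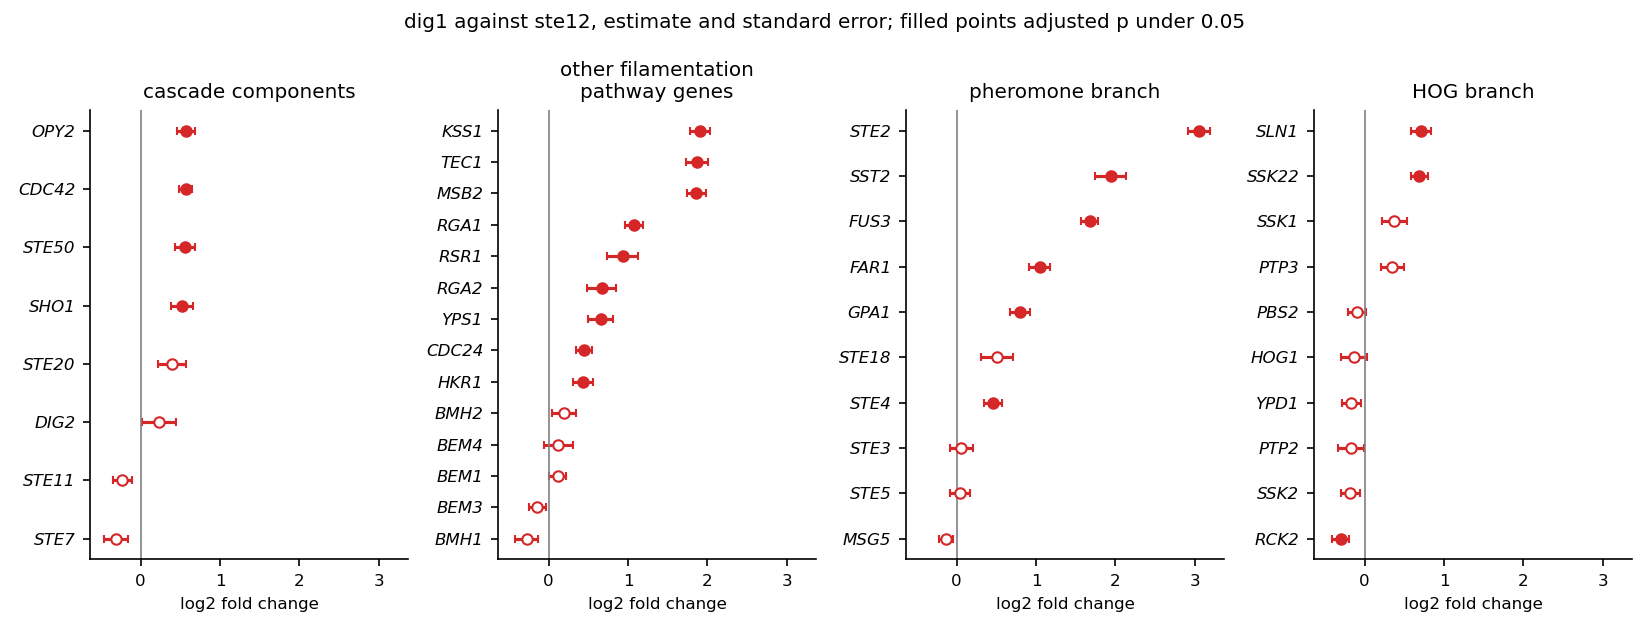
Log2 fold changes with standard errors in dig1 against ste12 for 8 cascade genes (STE12 and DIG1 left out) and for the other genes of the filamentation, mating and HOG branches, filled where the adjusted p was under 0.05. Called cascade genes lie near 0.5, while KSS1, TEC1 and MSB2 lie near 1.9 and STE2 at 3.05, and the other branches also hold genes near and below 0.

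Among all tested genes, the transcript most like CDC42 over the 21 libraries was FLO11, which encodes the flocculin of adhesion and mats, with a Pearson r of log2 levels of 0.93, followed by the cell wall protein gene CWP2 with 0.88. FLO11 ranged from 679 CPM in rtg3 to 34518 CPM in dig1, a far wider span than the 168 to 286 CPM of CDC42. Leaving out any 1 strain gave an r with FLO11 of at least 0.89, and over the 7 strain means it was 0.97. These values describe points that share libraries and strains, FLO11 was picked as the highest of all tested genes, and no p is given.

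**Figure D5:**
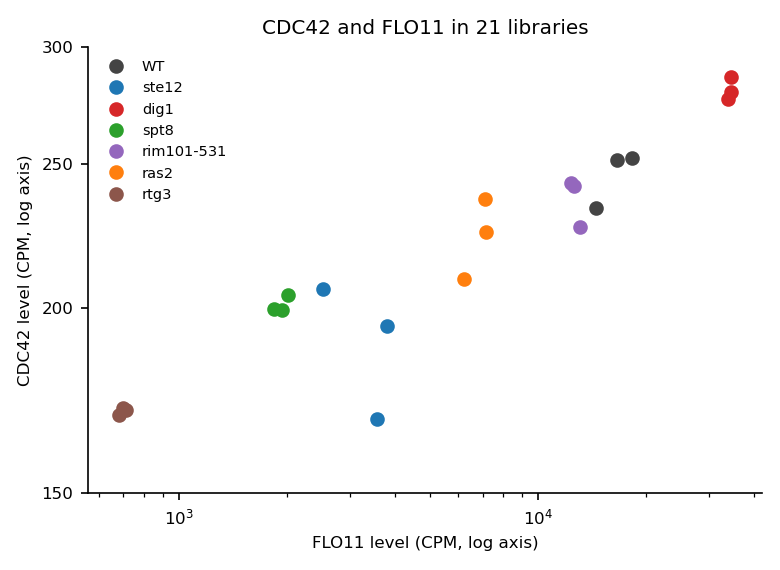
CDC42 level against FLO11 level in CPM in 21 libraries, both axes logarithmic, coloured by strain. The dig1 libraries lie highest on both axes and the rtg3 libraries lowest for FLO11. The ste12 libraries spread over the CDC42 levels of rtg3 and spt8, 1 of them lying just under rtg3, with more FLO11 than either.

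The nearest transcripts of the other members were found the same way, except for DIG2, which had not passed the overall test. STE12 was most like NFG1 (r = 0.91) and PRY2 (0.91), and without the ste12 libraries r fell to 0.72 and 0.80. DIG1 was most like MRH1 (0.85) and NUM1 (0.81), which without the dig1 libraries dropped to 0.17 and 0.57, so that these rested largely on its own mutant. STE7 was most like NPR1 (0.91), a kinase gene of amino acid uptake, and FUN19 (0.88), and STE11 most like TIF4632 (0.88), a translation initiation factor gene, and ATG1 (0.86), an autophagy kinase gene. OPY2 was most like SRD1 (0.85) and MSB4 (0.82), and STE50 most like ESL1 (0.85) and STP22 (0.83). Without the ste12 libraries these fell to 0.68 and 0.69 for OPY2 and to 0.72 and 0.61 for STE50. STE20 was most like SEN1 (0.83) and BAT1 (0.81), and SHO1 most like GPI2 (0.81) and GET2 (0.80). For STE7, STE11, STE20 and SHO1 the lowest r with any 1 strain left out was 0.72. Among the members themselves the largest values were 0.71 for STE12 with SHO1, 0.66 for STE20 with SHO1 and 0.65 for DIG2 with STE11. The lowest was -0.68 for STE11 with CDC42. Without the ste12 libraries STE12 with SHO1 fell to 0.49, while STE12 with CDC42 stood at 0.70 (0.63 with them). STE12 with STE50 and with OPY2 dropped to -0.08 and -0.04, from 0.54 and 0.56.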

How the data were processed

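Polyadenylated RNA of 21 biofilm libraries was measured, 3 for each of 7 strains, and the labels gave strain and replicate number. Per the labels, libraries were made with a TruSeq RNA kit after hot acid phenol extraction. Per the submitters' processing notes, bcl2fastq, TopHat2 2.0.19 and HTSeq 0.6.1 were used with build R64, with no settings named. Of the annotation version, filters and strand setting, none is given in the sources used here. The authors deposited 1 table a library of raw counts per feature, whole numbers with no scaling, and 6048 of 7126 features matched a RefSeq R64 locus tag, from which symbols and coordinates came. Sigma1278B reads counted on an S288C reference can be undercounted alike in all strains. HTSeq's totals for records in no gene were left out.

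All replicate pairs differed by more than sampling noise (chi-square per degree of freedom 1.93 to 56.9). The analysis used edgeR 4.0.16 (R 4.3.3): filterByExpr by strain (5786 genes), TMM factors (0.893 to 1.16) and 1 quasi-likelihood model over 21 libraries, with Benjamini-Hochberg adjustment over 5786 genes. A standard error is the size of the log2 fold change over the square root of F. The fit was tested on simulated counts with known changes in ste12. It recovered 83% of 2-fold and 38% of 1.5-fold changes, and 7 of 128 calls were false. An uncalled member is therefore not shown to be unchanged. The members, lists, tests and the rule for named genes were chosen with earlier results of these data known. The rule took all 10 members, 4 genes of each other list by smallest overall p (other filamentation, mating and HOG genes), the 2 genes most like each member called in the overall test, and the mutated genes. Lists of a-specific, alpha-specific and galactose genes served to check the culture, and of the alpha-specific genes STE3 and SAG1 were tested and MFALPHA1 was not. Motifs were read from the R64 genome. Alternatives were DESeq2 1.42.0, its size factors, plain library totals for levels, no filter, the replicate number as a block, the libraries of both strains alone, and each library left out.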

Additional observations from a re-analysis of the deposited data

How the results depend on the processing

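Of 70 pairs of a member and a comparison, 16 were called, 9 of them under every other setting tried and 7 not in at least 1, and 7 uncalled pairs were called in at least 1. None of these settings reversed the direction of a called pair. DESeq2 called 4 members in dig1 (2 in the analysis as reported), and without the filter on low counts ras2 had 0 (1). With only the libraries of both strains, members called were 1 in ste12 (3), 1 in dig1 (2), 0 in spt8 (2) and 2 in ras2 (1), and genes called were 385 in dig1 (909), 61 in rim101-531 (178) and 603 in dig1 against ste12 (1255); these fits have fewer libraries to estimate the spread. Against the mean of the 5 other mutants, chosen after seeing the data, genes called were 1581 in ste12 (577), 331 in rim101-531 (178) and 2040 in rtg3 (1185). Members called were 6 in ste12, 4 in dig1, 0 in ras2 and 4 in rtg3 (2). STE12 or DIG1 was left out where the reference held its mutant, and was counted in its own mutant.

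Leaving out 1 library at a time gave 1 to 3 members in ste12, 1 to 2 in dig1, 1 to 3 in spt8 and 0 to 0 in ras2. Genes called ranged from 357 to 456 in ste12, 76 to 176 in rim101-531 and 719 to 1068 in rtg3. The cause of the other changes was not tested. Same-numbered libraries deviated together in 12 of 21 pairs (correlation over 0.1, lowest -0.25, median 0.19, highest 0.54). The fit as reported did not use the numbers, and whether they mark a shared batch was not tested. With the replicate block, members called were 4 in ste12, 3 in dig1, 2 in spt8, 0 in rim101-531, 1 in ras2, 3 in rtg3 and 6 in dig1 against ste12, and genes called in rim101-531 were 269 (178). Calls gained were SHO1 in ste12 (adjusted p = 0.0439), STE50 in dig1 (0.0455) and STE12 in rtg3 (0.0307). Replicates 1 and 2 were the most different pair in all 7 strains by chi-square. DESeq2 size factors moved 2 of 70 strain levels by more than 1 SD, and plain library totals 31 of 70. Counts of 33 to 106 a library limited DIG2.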

Other observations

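The mating-type check of the strains gave values outside the cascade. BAR1, the a-specific protease that degrades alpha factor, ranged from 12.1 to 604 CPM over the 21 libraries, and STE6, the a-factor exporter, from 34.3 to 142 CPM. The alpha-specific genes STE3 and SAG1 were counted too, from 22.7 to 40.5 CPM and from 33.9 to 66.9 CPM. MFA1 reached at most 2.42 CPM and MFALPHA1 at most 3.71 CPM in a library.

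The ratio of STE11 to CDC42 transcripts per coding length, the member pair with the most negative correlation, was 0.082 ± 0.0087 in WT, 0.13 ± 0.013 in spt8, 0.17 ± 0.015 in rtg3 and 0.058 ± 0.0082 in dig1 (SD, n = 3). These ratios were formed after the values of both genes were seen and were not tested.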
